A study of Mus musculus with 30 samples.

Results

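The kidney's organic ion and drug transporters were followed at the RNA level as 3 solute carrier families (Slc22a, Slco and Slc47a) and 3 ABC pump groups (Abcb1, Abcc and Abcg2). Members were all genes of both count tables whose symbol starts with Slc22a, Slco, Slc47a, Abcc or Abcb1, plus Abcg2, leaving out Slc22a29, Slco1a1, Abcc3 and the antisense and pseudogene symbols. This gave 54 of 57133 genes: 24 Slc22a, 14 Slco, 2 Slc47a, 9 Abcc and 4 Abcb1 symbols and Abcg2. The Abcb1 prefix also takes in Abcb10, a mitochondrial pump, and Abcb11, the bile salt pump of liver. By their known direction of transport 35 members are uptake carriers, 13 are export carriers and 6 were assigned to neither (Slc22a17, Slc22a18, Slc22a23, Abcb10, Abcc8 and Abcc9). The rule used no measured value as a cutoff, but it was set with earlier results of these data known.

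The series is bulk RNA sequencing of whole mouse kidney after poly-A enrichment, from transgenic (TG) mice labelled Gsta2-H2BeGFP and wildtype (WT) mice. Its title describes raised Gsta2, a glutathione S-transferase gene with female-biased expression, in male proximal tubule cells, and better resilience to ischemia-reperfusion injury (IRI). Kidneys without surgery gave 3 libraries each of TG females, WT females, TG males and WT males. All other libraries were male: 6 TG and 6 WT libraries of kidneys with nephrectomy and IRI (NX+IRI), taken at 4 hours, and 3 TG and 3 WT libraries with nephrectomy alone (NX), so both surgical groups carried a nephrectomy. Kidneys without surgery and surgical kidneys are in separate count tables and were not tested against each other, since surgery and table cannot be told apart. Strain, age, the number of transgenic lines, the promoter that drives the transgene and the time after nephrectomy alone were not given in the sources used here.

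Proximal tubule cells clear drugs, toxins and metabolites from blood into urine in 2 steps. Uptake carriers on the blood side bring organic anions (Slc22a6, Slc22a8) or organic cations (Slc22a2) into the cell, and export carriers on the urine side release them (Slc47a1 for cations, the ABC pumps Abcc2, Abcc4, Abcg2 and Abcb1 for anions, conjugates and neutral drugs). Other members work in the reverse direction and recover urate (Slc22a12) or carnitine (Slc22a5) from the filtrate. Many of these genes are known to differ between male and female rodents.

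On the RPKM scale, which divides counts by exon length and library size, the Slc22a family held most of the RNA of the 54 members. Its summed level averaged 1495 ± 106 RPKM in TG females and 2198 ± 187 in TG males (SD, n = 3 each), and 1466 ± 146 RPKM in WT females and 2100 ± 269 in WT males (SD, n = 3 each). The 14 Slco genes together averaged between 98.5 RPKM in WT NX+IRI kidneys and 129 RPKM in WT females. The 9 Abcc genes averaged between 45.5 RPKM in WT females and 59.9 RPKM in TG males. Summed uptake members were lower in all female libraries than in all male libraries without surgery, at 1345 ± 119 RPKM in TG females and 1981 ± 187 in TG males. The WT sums were 1343 ± 125 RPKM in females and 1884 ± 250.3 RPKM in males. Summed export members showed the same order, at 209.8 ± 3.19 RPKM in TG females and 290.4 ± 32.6 in TG males, and 184 ± 6.3 RPKM in WT females and 292 ± 16.8 in WT males. These sums are descriptions and were not tested; they weigh each gene by its level, so a few abundant genes set them. The Abcb1 group went the other way, with 17.1 ± 1.07 RPKM in TG females and 11.4 ± 0.749 in TG males.

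**Figure D1:**
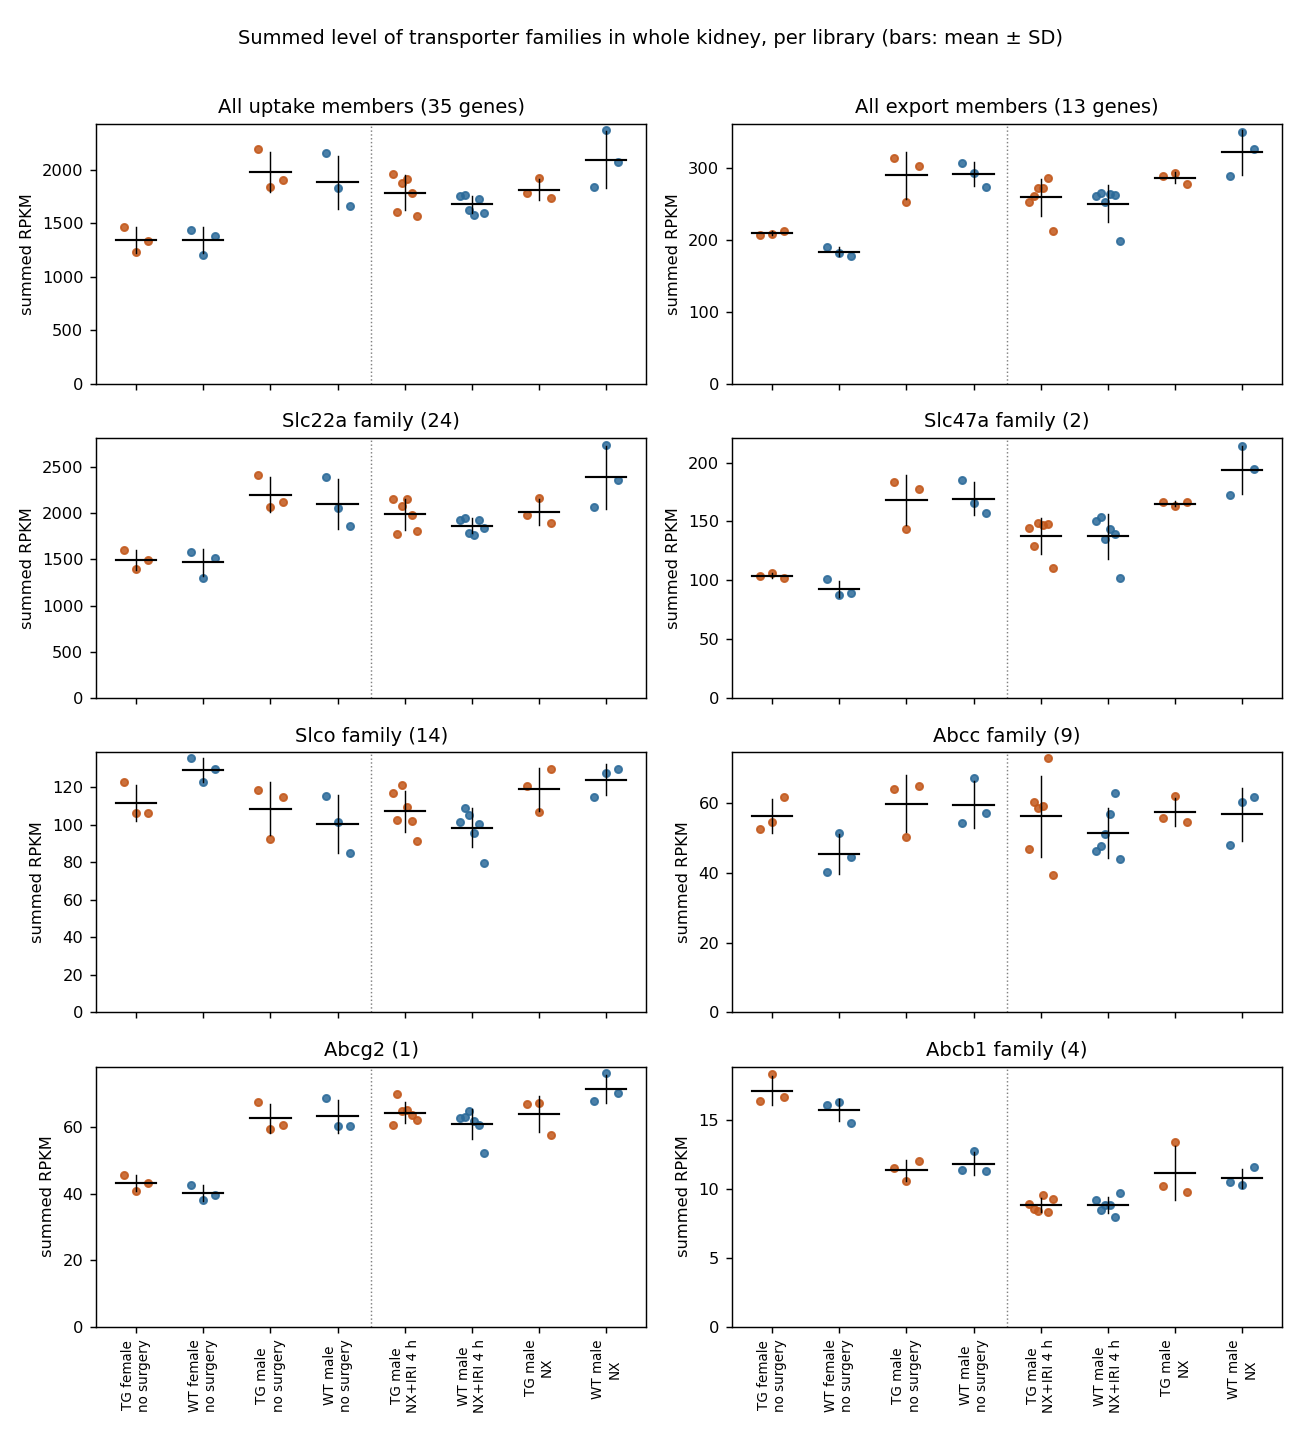
Summed level of the uptake members, the export members and each family, in RPKM (linear axes from 0), for each of the 8 groups. Points are libraries, horizontal bars the group mean and vertical bars ± 1 SD; the dotted line separates the no-surgery table from the NX and NX+IRI table. The uptake sum averaged 1345 RPKM in TG females and 1343 in WT females, under the 1981 in TG males and 1884 in WT males.

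Within a group the order of levels was steep. In WT males without surgery the highest member was Slc22a12, the urate exchanger URAT1, at 483 RPKM. High levels were also found for Slc22a18 (291 RPKM), an imprinted carrier-like gene, and Slc22a6 (259 RPKM), the organic anion carrier OAT1. Slc47a1 (the proton-driven exporter MATE1) led the export members at 169 RPKM, ahead of Abcg2 at 63.3 and Abcc2 (MRP2) at 36.6 RPKM. Slco1a6 led its family at 53.4 RPKM, and Abcb10 the Abcb1 group at 9.7 RPKM. In WT females the order differed: Slc22a18 came first at 226 RPKM, above Slc22a12 at 193, Slc22a7 at 160.3 and Slc22a8 (OAT3) at 159 RPKM. Slc22a6 averaged 96 RPKM in these females. Reads were counted over all annotated exons, so RPKM is a rough scale for genes with long or rarely used exons.

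In all, 41 members averaged at least 1 CPM (counts scaled to library size) in some group. Of the 13 others, Slc22a16, Slco6b1 and Slco6c1 had no count in any library. All 1778 exon bases of Slco6b1 also lie in exons of another annotated gene on the same strand, so its 0 says nothing of its expression. The remaining 10 (Abcb11, Abcc8, Abcc12, Slc22a20, Slc47a2, Slco1a5, Slco1b2, Slco1c1, Slco5a1 and Slco6d1) stayed below 1 CPM in every group mean. The neighbouring genes of several families share sequence: 53.9% of the 50-base stretches of Slc22a28 transcripts, 32.0% of Slc22a30, 26.2% of Slc22a5, 16.3% of Abcb1a, 11.1% of Abcb1b and 9.1% of Slc22a27 also occur in another member, as do stretches of Slc22a21. How the counting treated reads that fit more than 1 place is not given, so values of these 7 genes are uncertain as a split between near-identical copies. Exons of Abcb10 (10.3%), Abcb1a (10.1%), Slc22a3 (9.3%) and Slco2b1 (7.9%) overlap a gene on the opposite strand, and whether counting used strand is not given either.

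Library totals were 49040915 to 66446450 counts without surgery and 59574069 to 91354407 counts after NX or NX+IRI. Counts of EGFP were found in all 15 TG libraries and, at 2.59 CPM, in 1 library labelled WT (NX+IRI replicate 1). Gsta2 averaged 50.7 CPM in TG males, against 96.2 CPM in WT males (edgeR adjusted p = 0.673). After NX+IRI it averaged 77.3 CPM in TG and 84.1 CPM in WT kidneys (edgeR adjusted p = 0.806). The 10 proximal tubule markers, all detected in each group, summed to 13840 to 15800 CPM in the 6 female libraries and 14770 to 18500 CPM in the 6 male libraries without surgery. The 5 markers of the straight (S3) segment, also all detected, summed to 1547 to 1984 CPM in females and 5333 to 6770 CPM in males. The 3 libraries over 20 CPM of the fat hormone gene Adipoq were WT female replicate 1 (25.6 CPM), TG male replicate 1 (25.2 CPM) and WT NX replicate 0 (35.7 CPM). In bulk tissue, fewer cells of a type and less RNA per cell cannot be told apart. Whether the libraries of a group are separate animals is not stated, and p-values therefore reflect library-to-library spread only.

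The comparison of female with male kidneys asked which uptake and export genes are sex-biased. In TG kidneys 23 of 43 tested members passed (edgeR quasi-likelihood test, Benjamini-Hochberg adjusted p under 0.05), 11 higher and 12 lower in females, where 21.2% of all genes passed (9.87% higher, 11.3% lower). In WT kidneys 25 of 43 passed, 12 higher and 13 lower, where 21.3% of all genes passed (10.1% higher, 11.3% lower). With at least a 2-fold change, 5 rose and 8 fell in TG females, where 2.38% and 2.05% of all genes did. In WT females 6 rose and 9 fell by at least 2-fold, where 2.11% and 2.45% of all genes did. A set of 20 members passed in both genotypes, each in the same direction. The median log2 fold change of the tested members, female minus male, was 0.043 in TG and -0.027 in WT kidneys and that of all genes was 0.022 in TG and 0.029 in WT kidneys. Over all genes, female and male libraries did not overlap for 38.7% in TG and 36.8% in WT kidneys. Of 26 tested uptake members 5 rose and 8 fell in TG females, and 7 rose and 8 fell in WT females. Of 11 tested export members 5 rose and 3 fell in TG females, and 3 rose and 3 fell in WT females. No member passed the test of a sex by genotype interaction (edgeR; 3 at an unadjusted p under 0.05, 0 calls by DESeq2 and by limma-voom; 0.00523% of all genes passed and 8.58% had an unadjusted p under 0.05).

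**Figure D2:**
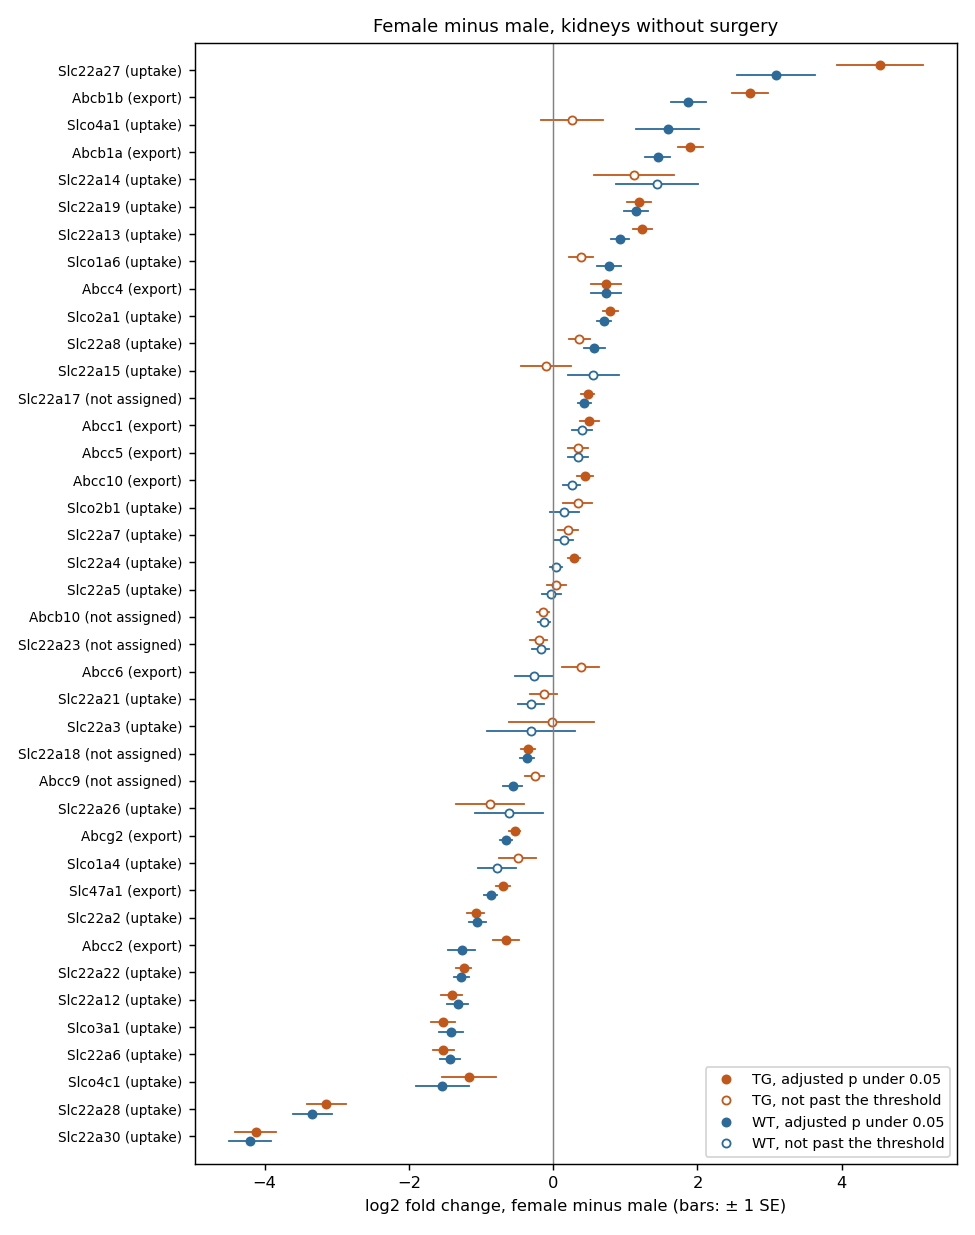
Log2 fold change, female minus male, of the members named in the text and tested in kidneys without surgery, for TG (orange) and WT (blue), with bars of ± 1 SE. Filled points passed an edgeR adjusted p of 0.05. Slc22a30 and Slc22a28 lie lowest and Slc22a27 and Abcb1b highest in both genotypes.

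The organic cation carriers Slc22a2 and Slc22a3 lie on chromosome 17. Slc22a2 (OCT2), the main blood-side cation uptake carrier of rodent kidney, had 218, 165 and 189.5 CPM in TG females, against 443, 363 and 402 CPM in TG males, and 193, 165 and 210.3 CPM in WT females, against 437, 392 and 351 CPM in WT males. All female libraries lay below all male libraries. Slc22a2 gave a log2 fold change, female minus male, of -1.08 ± 0.12 (SE, edgeR adjusted p = 6.43e-05) in TG kidneys and -1.05 ± 0.12 (SE, edgeR adjusted p = 6.22e-05) in WT kidneys. Slc22a3 (OCT3) was near 1 CPM, at 1.19 CPM in TG females and 1.2 CPM in TG males, and 0.724 CPM in WT females and 0.894 CPM in WT males. The sex difference passed the test for Slc22a2 and not for Slc22a3; the difference between the genes was not tested.

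Of the carnitine and zwitterion carriers, Slc22a4 passed, and in TG kidneys alone; whether the genotypes differ is covered by the interaction test above. Slc22a5 (OCTN2), which recovers carnitine, averaged 374 ± 52.5 CPM in TG females and 363 ± 65.6 CPM in TG males, and 355 ± 14.7 CPM in WT females and 362 ± 40.7 CPM in WT males (SD, n = 3 each). Its log2 fold change, female minus male, lay within -0.22 to 0.31 in TG and -0.29 to 0.24 in WT kidneys (estimate ± 2 SE). Slc22a4 (OCTN1), a carrier of the antioxidant ergothioneine, rose in TG females to 68.1 CPM, against 55.7 CPM in TG males (log2 fold change 0.29 ± 0.083 SE, edgeR adjusted p = 0.0254). That call was lost without TG female replicate 1 or 2 or TG male replicate 1 (adjusted p 0.0658 to 0.093). In WT kidneys Slc22a4 gave 0.042 ± 0.083 (SE, edgeR adjusted p = 0.776). Slc22a21 (Octn3, described in mouse) averaged 3.47 CPM in TG females and 3.81 CPM in TG males, and 3.08 CPM in WT females and 3.81 CPM in WT males. Slc22a15, a zwitterion carrier known from human work, averaged 4 CPM in TG females and 4.28 CPM in TG males, and 4.84 CPM in WT females and 3.28 CPM in WT males; neither gene passed.

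A group of 7 Slc22a anion carriers lies on chromosome 19 (GRCm39 positions 7650426 to 8605663), in the order Slc22a19, Slc22a26, Slc22a27, Slc22a28, Slc22a30, Slc22a8 and Slc22a6. In WT kidneys Slc22a6, Slc22a28 and Slc22a30 fell in females and Slc22a8, Slc22a19 and Slc22a27 rose. In TG kidneys the same genes passed except Slc22a8, and Slc22a26 passed in neither in edgeR. The group thus held both the most male-biased and the most female-biased of the 43 tested members by estimate.

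The 120 bases before the annotated start (RefSeq, GRCm38.p6, an older build than the tables' GRCm39) are shown for 6 of these genes, so that neighbours with opposite sex bias can be compared base by base. Capitals mark GTTAAT, a core of recognition sequences of homeodomain transcription factors.
Slc22a6: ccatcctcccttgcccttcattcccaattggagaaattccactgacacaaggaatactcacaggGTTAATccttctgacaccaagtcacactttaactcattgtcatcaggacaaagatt
Slc22a8: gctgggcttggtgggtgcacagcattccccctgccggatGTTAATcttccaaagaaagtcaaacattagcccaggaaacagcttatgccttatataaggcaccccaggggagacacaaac
Slc22a30: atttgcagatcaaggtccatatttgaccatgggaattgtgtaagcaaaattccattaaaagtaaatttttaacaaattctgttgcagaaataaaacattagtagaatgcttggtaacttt
Slc22a28: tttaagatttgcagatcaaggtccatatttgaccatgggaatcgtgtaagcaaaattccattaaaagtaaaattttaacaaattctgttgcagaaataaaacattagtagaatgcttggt
Slc22a27: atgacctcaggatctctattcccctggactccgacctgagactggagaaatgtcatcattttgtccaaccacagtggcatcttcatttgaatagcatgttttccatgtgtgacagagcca
Slc22a19: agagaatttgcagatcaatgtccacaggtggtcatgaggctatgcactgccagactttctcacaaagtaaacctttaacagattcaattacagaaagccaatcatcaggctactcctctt
The windows lie at chr19:8617876-8617995 and chr19:8593062-8593181 on the plus strand for Slc22a6 and Slc22a8. On the minus strand they lie at chr19:8405106-8405225 for Slc22a30, chr19:8131983-8132102 for Slc22a28, chr19:7966028-7966147 for Slc22a27 and chr19:7711311-7711430 for Slc22a19. Slc22a30 and Slc22a28, the 2 genes with the strongest male bias, share 98.2% of 114 aligned bases when shifted by 6 bases. Slc22a19, higher in females, shares 52 of 114 aligned bases (45.6%) with Slc22a30, and Slc22a27 shares 33 of 100 (33.0%). The plus-strand genes Slc22a6 and Slc22a8, of opposite sex direction in WT kidneys, share 36 of 109 (33.0%) and each hold GTTAAT on the given strand, 56 and 81 bases before the start. Each share is taken at the best ungapped shift of up to 20 bases. Apart from Slc22a30 with Slc22a28, pairs of the 6 windows shared 32.0 to 45.6%, so a share near 33% does not set a pair apart. The bases just after the RefSeq start were found in a GENCODE M21 transcript of the same gene for the other 5 genes and not for Slc22a6, so distances for Slc22a6 refer to the RefSeq start alone. Over the 300 bases from 250 before to 50 after the start, searched on both strands, GTTAAT occurs in 8.24% of 27025 genes and in 3 of the 45 members with a promoter entry, the last being Slco1b2. The HNF4 letters CAAAGTCCA occur in 0.555% of genes and were not found in these windows of the members. The STAT letters TTCNNNGAA occur in 9.55% of genes and 9 members, among them Slc22a19, with matches 224 and 123 bases before its start, and Slc22a26. TATAAA occurs in 15.7% of genes and 7 members. A match describes these letters only.

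Slc22a6 (OAT1), the blood-side uptake carrier for many drugs and uremic anions, had 458, 354 and 406 CPM in TG females, against 1362, 1042 and 1089 CPM in TG males, and 405, 376 and 366 CPM in WT females, against 1217, 1045 and 837 CPM in WT males. Female libraries lay below the male ones in both genotypes. Slc22a6 gave a log2 fold change, female minus male, of -1.52 ± 0.14 (SE, edgeR adjusted p = 1.32e-05) in TG kidneys and -1.43 ± 0.14 (SE, edgeR adjusted p = 1.82e-05) in WT kidneys. Slc22a8 (OAT3), its close relative next to it, averaged 623 ± 46.5 CPM in WT females and 420.1 ± 111.5 CPM in WT males (SD, n = 3 each) and rose in WT females (log2 fold change 0.57 ± 0.14 SE, edgeR adjusted p = 0.0143). In TG kidneys Slc22a8 averaged 663 ± 26.9 CPM in TG females and 516 ± 4.83 CPM in TG males without passing (log2 fold change 0.36 ± 0.14 SE, edgeR adjusted p = 0.0988). With only the compared groups in the fit, the Slc22a8 calls changed sides (edgeR adjusted p = 0.00374 in TG and 0.0563 in WT).

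Slc22a30 and Slc22a28, rodent anion carriers, showed the largest male excess of the tested members. Slc22a30 had 15.3, 9.11 and 10.1 CPM in TG females, against 223, 161 and 218 CPM in TG males, and 8.47, 7.67 and 16 CPM in WT females, against 227, 192 and 173 CPM in WT males. Slc22a28 had 18.1, 15.9 and 16 CPM in TG females, against 178, 90.3 and 173 CPM in TG males, and 16.5, 12.4 and 13.4 CPM in WT females, against 185, 99.3 and 145 CPM in WT males. The highest female library lay far below the lowest male library for both genes. Slc22a30 gave a log2 fold change, female minus male, of -4.12 ± 0.28 (SE, edgeR adjusted p = 1.11e-06) in TG kidneys and -4.20 ± 0.29 (SE, edgeR adjusted p = 9.8e-07) in WT kidneys. Slc22a28 gave one of -3.14 ± 0.27 (SE, edgeR adjusted p = 5.93e-06) in TG kidneys and -3.34 ± 0.27 (SE, edgeR adjusted p = 4.04e-06) in WT kidneys. Because the genes share sequence, the split of reads between them is uncertain.

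Slc22a27, another rodent anion carrier between them and Slc22a19, ran the opposite way at a low level, with 8.57, 4.26 and 3.44 CPM in TG females, against 0.148, 0.413 and 0.144 CPM in TG males, and 3.36, 6.7 and 5.78 CPM in WT females, against 0.288, 1.13 and 0.411 CPM in WT males. No male library reached the lowest female library. Slc22a27 gave a log2 fold change, female minus male, of 4.53 ± 0.59 (SE, edgeR adjusted p = 0.000197) in TG kidneys and 3.09 ± 0.54 (SE, edgeR adjusted p = 0.00132) in WT kidneys. Slc22a19, the rodent urine-side anion carrier Oat5, had 364, 246 and 269.5 CPM in TG females, against 120.3, 138 and 127 CPM in TG males, and 320, 219.9 and 353 CPM in WT females, against 128, 126 and 149.7 CPM in WT males. Groups did not overlap in either genotype. Slc22a19 gave a log2 fold change, female minus male, of 1.19 ± 0.17 (SE, edgeR adjusted p = 0.000365) in TG kidneys and 1.15 ± 0.17 (SE, edgeR adjusted p = 0.000416) in WT kidneys. Slc22a26, the last gene of the group, averaged 16.1 ± 13.2 CPM in TG females and 29.6 ± 2.87 CPM in TG males, and 18.3 ± 11.4 CPM in WT females and 28.1 ± 1.8 CPM in WT males (SD, n = 3 each), with overlapping groups and no edgeR call. In TG kidneys Slc22a26 was called lower in females by limma-voom (adjusted p = 0.0359), and by edgeR without TG female replicate 0 (log2 fold change -1.80, adjusted p = 0.00596).

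**Figure D3:**
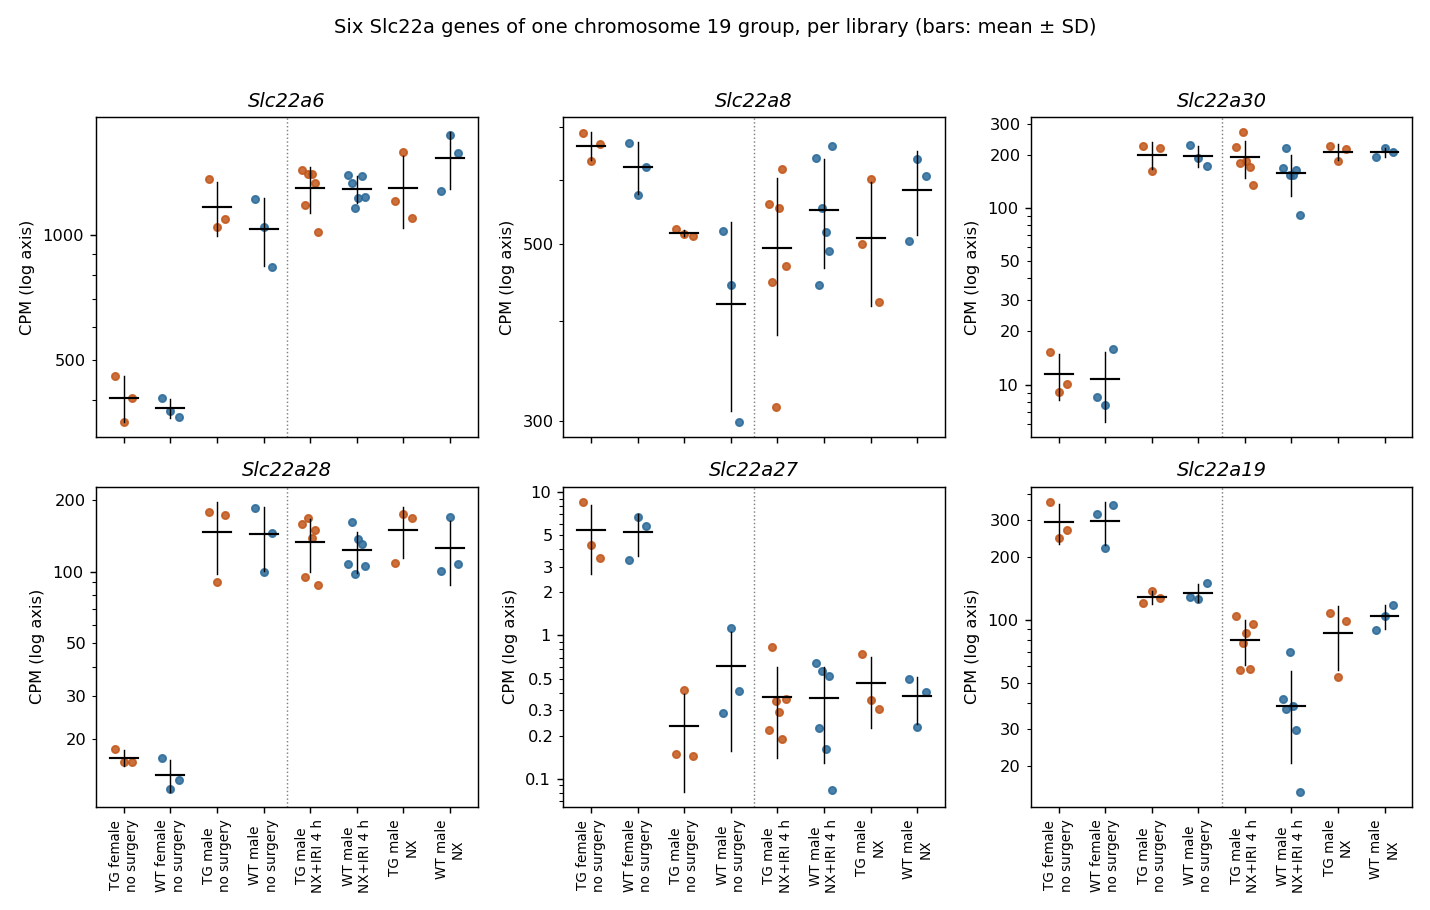
Level of 6 Slc22a genes of the chromosome 19 group in each library, in CPM on log axes, for the 8 groups. Points are libraries, horizontal bars the mean and vertical bars ± 1 SD; the dotted line separates the 2 count tables. Slc22a6, Slc22a30 and Slc22a28 lie lower in female than in male groups, Slc22a27 and Slc22a19 higher, and Slc22a19 averages lowest in WT NX+IRI kidneys.

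Anion carriers elsewhere in the genome also split by sex. Slc22a12 (URAT1), which takes urate back from the urine side, had 505, 409 and 467 CPM in TG females, against 1406, 1151 and 1112 CPM in TG males, and 506, 383 and 421 CPM in WT females, against 1314, 1043 and 919 CPM in WT males. All female libraries were below all male libraries. Slc22a12 gave a log2 fold change, female minus male, of -1.41 ± 0.15 (SE, edgeR adjusted p = 3.23e-05) in TG kidneys and -1.32 ± 0.15 (SE, edgeR adjusted p = 4.33e-05) in WT kidneys. Slc22a22, a prostaglandin carrier of mouse kidney, had 51.2, 44.5 and 47.1 CPM in TG females, against 112.0, 94.8 and 131 CPM in TG males, and 45.3, 45.3 and 43.8 CPM in WT females, against 119, 106 and 100.3 CPM in WT males. Again no female library reached a male one. Slc22a22 gave a log2 fold change, female minus male, of -1.24 ± 0.10 (SE, edgeR adjusted p = 6.2e-06) in TG kidneys and -1.27 ± 0.11 (SE, edgeR adjusted p = 5.02e-06) in WT kidneys.

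Slc22a13 (OAT10), a nicotinate and urate carrier known from human work, was higher in females, with 189.9, 153 and 169 CPM in TG females, against 75.9, 64.4 and 77 CPM in TG males, and 208, 144 and 189 CPM in WT females, against 87.4, 93.6 and 104 CPM in WT males. Groups were separate in both genotypes. Slc22a13 gave a log2 fold change, female minus male, of 1.24 ± 0.13 (SE, edgeR adjusted p = 3.48e-05) in TG kidneys and 0.93 ± 0.13 (SE, edgeR adjusted p = 0.000253) in WT kidneys. Its chromosome 9 neighbour Slc22a14 was scarce, at 0.968 CPM in TG females and 0.442 CPM in TG males, and 1.05 CPM in WT females and 0.383 CPM in WT males, without an edgeR call; without the libraries over 20 CPM of Adipoq it passed in WT kidneys (adjusted p = 0.0213). Slc22a7 (OAT2) averaged 308 ± 41.3 CPM in TG females and 267 ± 23.9 CPM in TG males, and 337 ± 57.9 CPM in WT females and 304 ± 34.5 CPM in WT males (SD, n = 3 each), also without a call (edgeR adjusted p = 0.323 in TG and 0.49 in WT).

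Among the Slco genes, carriers of steroid conjugates, thyroid hormones and prostaglandins, Slco3a1 and Slco4c1 were lower in females. Slco3a1 had 74.1, 83.8 and 88.7 CPM in TG females, against 298, 184 and 229.8 CPM in TG males, and 83.7, 91.9 and 108 CPM in WT females, against 277, 273 and 206 CPM in WT males. Females lay below males throughout. Slco3a1 gave a log2 fold change, female minus male, of -1.53 ± 0.17 (SE, edgeR adjusted p = 4.58e-05) in TG kidneys and -1.42 ± 0.17 (SE, edgeR adjusted p = 6.87e-05) in WT kidneys. Slco4c1, the blood-side kidney carrier known from human and rat for digoxin and thyroid hormone, had 7.66, 9.07 and 9.32 CPM in TG females, against 15.3, 9.78 and 33.3 CPM in TG males, and 10.7, 8.97 and 11.7 CPM in WT females, against 33.1, 18.2 and 39.7 CPM in WT males. The groups did not overlap, but TG males spread widely. Slco4c1 gave a log2 fold change, female minus male, of -1.17 ± 0.37 (SE, edgeR adjusted p = 0.041) in TG kidneys and -1.54 ± 0.37 (SE, edgeR adjusted p = 0.0104) in WT kidneys. The TG call was lost without any 1 of the 3 TG female libraries or TG male replicate 2 (adjusted p 0.0939 to 0.233), and without that male library the estimate was -0.53.

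Slco4a1, a thyroid hormone carrier, had 19.6, 34.5 and 36.8 CPM in TG females, against 25.8, 27.1 and 22.9 CPM in TG males, and 39.8, 134 and 82.9 CPM in WT females, against 16.3, 48.5 and 20.4 CPM in WT males. The WT groups overlapped, and the WT female libraries spread widely. Slco4a1 gave a log2 fold change, female minus male, of 0.26 ± 0.43 (SE, edgeR adjusted p = 0.726) in TG kidneys and 1.59 ± 0.44 (SE, edgeR adjusted p = 0.0205) in WT kidneys. The WT call was lost without female replicate 1, male replicate 0 or male replicate 2 of the WT libraries (adjusted p 0.0748 to 0.0967), and without the libraries over 20 CPM of Adipoq (adjusted p = 0.105). Slco2a1, the prostaglandin transporter, rose in females of both genotypes, to 61.3 ± 6.55 CPM in TG females, against 35.4 ± 2.9 CPM in TG males, and 60.5 ± 6.55 CPM in WT females, against 37.2 ± 2.05 CPM in WT males (SD, n = 3 each). Its log2 fold change, female minus male, was 0.79 ± 0.10 (SE, edgeR adjusted p = 0.000158) in TG kidneys and 0.70 ± 0.10 (SE, edgeR adjusted p = 0.000331) in WT kidneys. The family's most abundant member, Slco1a6, an anion carrier of mouse kidney, had 381, 305 and 301 CPM in TG females, against 264, 222 and 270.2 CPM in TG males, and 414, 285 and 342 CPM in WT females, against 255, 192 and 163 CPM in WT males. Females lay above males in both genotypes. Slco1a6 gave a log2 fold change, female minus male, of 0.38 ± 0.17 (SE, edgeR adjusted p = 0.127) in TG kidneys and 0.77 ± 0.17 (SE, edgeR adjusted p = 0.00558) in WT kidneys, a call in WT kidneys. With only the compared groups in the fit, edgeR called Slco1a6 higher in TG females too (adjusted p = 0.0402). The same call came without the low-count filter (edgeR adjusted p = 0.0368) and with a replicate block (edgeR adjusted p = 0.0245). Slco2b1 averaged 16.2 CPM in TG females and 12.8 CPM in TG males, and 14.4 CPM in WT females and 12.9 CPM in WT males, and Slco1a4 averaged 1.6 CPM in TG females and 2.25 CPM in TG males, and 1.5 CPM in WT females and 2.57 CPM in WT males, with no edgeR call for either gene. In WT kidneys Slco1a4 was called lower in females by both other tools (DESeq2 adjusted p = 0.0251, limma-voom adjusted p = 0.0437).

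On the export side, Slc47a1 (MATE1), which hands organic cations to the urine, had 349.9, 358 and 344 CPM in TG females, against 619, 487 and 602 CPM in TG males, and 341, 297 and 302 CPM in WT females, against 626, 561 and 532 CPM in WT males. Every female library lay below every male library. Slc47a1 gave a log2 fold change, female minus male, of -0.70 ± 0.095 (SE, edgeR adjusted p = 0.000257) in TG kidneys and -0.87 ± 0.095 (SE, edgeR adjusted p = 4.24e-05) in WT kidneys. The uptake carrier Slc22a2 and the exporter Slc47a1 of the cation route thus both fell in females. Abcg2, which exports urate and sulfate conjugates, had 373, 333 and 352 CPM in TG females, against 553, 486 and 495 CPM in TG males, and 349, 311 and 323 CPM in WT females, against 562, 493.0 and 493.3 CPM in WT males. The groups were again separate. Abcg2 gave a log2 fold change, female minus male, of -0.54 ± 0.079 (SE, edgeR adjusted p = 0.000436) in TG kidneys and -0.66 ± 0.079 (SE, edgeR adjusted p = 8.26e-05) in WT kidneys. Abcc2 (MRP2), the urine-side pump for conjugates, had 199, 166 and 232 CPM in TG females, against 370.3, 213 and 357 CPM in TG males, and 120.5, 144 and 125 CPM in WT females, against 283, 354 and 300.4 CPM in WT males. WT groups were separate and TG groups overlapped. Abcc2 gave a log2 fold change, female minus male, of -0.66 ± 0.18 (SE, edgeR adjusted p = 0.0221) in TG kidneys and -1.27 ± 0.18 (SE, edgeR adjusted p = 0.000372) in WT kidneys. The TG call was lost without TG female replicate 0 or 1 or TG male replicate 0 or 2 (adjusted p 0.0581 to 0.0941).

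P-glycoprotein, the broad drug export pump, is encoded in mouse by Abcb1a and Abcb1b, side by side on chromosome 5 (GRCm39 positions 8710077 to 8916315). Abcb1b had 35.1, 39.99 and 40.3 CPM in TG females, against 6.01, 4.48 and 6.96 CPM in TG males, and 38.1, 30.5 and 29.5 CPM in WT females, against 5.41, 12.2 and 9.04 CPM in WT males. Female libraries were all above the male ones. Abcb1b gave a log2 fold change, female minus male, of 2.72 ± 0.25 (SE, edgeR adjusted p = 1.1e-05) in TG kidneys and 1.87 ± 0.24 (SE, edgeR adjusted p = 0.00014) in WT kidneys. Abcb1a had 16.1, 22.4 and 19.1 CPM in TG females, against 4.42, 5.04 and 5.93 CPM in TG males, and 16.6, 15.2 and 13.8 CPM in WT females, against 4.34, 6.18 and 6.18 CPM in WT males. Here too the groups did not overlap. Abcb1a gave a log2 fold change, female minus male, of 1.90 ± 0.17 (SE, edgeR adjusted p = 1.05e-05) in TG kidneys and 1.45 ± 0.17 (SE, edgeR adjusted p = 7.18e-05) in WT kidneys. Abcb10 averaged 37.9 ± 2.55 CPM in TG females and 41.8 ± 2.37 CPM in TG males, and 38.2 ± 3.15 CPM in WT females and 41.8 ± 2.43 CPM in WT males (SD, n = 3 each) and did not pass in either genotype (edgeR adjusted p = 0.268 in TG and 0.3 in WT).

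Among the other Abcc pumps, Abcc4 (MRP4), an exporter of urate, drugs and cyclic nucleotides, rose in females of both genotypes. It averaged 108 ± 18 CPM in TG females and 64.7 ± 17.2 CPM in TG males, and 94.1 ± 17.3 CPM in WT females and 56.6 ± 12.1 CPM in WT males (SD, n = 3 each), with log2 fold changes, female minus male, of 0.73 ± 0.21 (SE, edgeR adjusted p = 0.0229) in TG kidneys and 0.73 ± 0.21 (SE, edgeR adjusted p = 0.023) in WT kidneys. In each genotype the Abcc4 call was lost without female replicate 1 or 2 or male replicate 0 or 2 (adjusted p 0.0625 to 0.087 in TG and 0.0602 to 0.0929 in WT). Abcc1 (MRP1) and Abcc10 (MRP7) rose in TG females, at 45.3 CPM in TG females and 32 CPM in TG males for Abcc1 and 24.3 CPM in TG females and 17.9 CPM in TG males for Abcc10. Their edgeR adjusted p was 0.0175 and 0.018 in TG, and 0.0502 and 0.144 in WT kidneys. Those TG calls were lost without TG female replicate 0 or 1 or TG male replicate 0 for Abcc1 (adjusted p 0.0569 to 0.0694) and without TG male replicate 1 or 2 for Abcc10 (adjusted p 0.0589 to 0.0637). Abcc9, a regulatory subunit of ATP-sensitive potassium channels, fell in WT females to 13.9 CPM, against 20.4 CPM in WT males (log2 fold change -0.56 ± 0.13 SE, edgeR adjusted p = 0.00921). Abcc5 (MRP5) averaged 59.3 CPM in TG females and 46.6 CPM in TG males, and 61.4 CPM in WT females and 48.3 CPM in WT males, and Abcc6 averaged 12.7 CPM in TG females and 9.74 CPM in TG males, and 9.72 CPM in WT females and 11.7 CPM in WT males, without an edgeR call. Abcc5 was called higher in TG females by limma-voom (adjusted p = 0.0416), and by edgeR with only the compared groups in the fit (adjusted p = 0.0267) or, in WT females, without WT female replicate 0 (adjusted p = 0.0123). Abcc6 was called higher in TG females without TG male replicate 0 (edgeR adjusted p = 0.0341), and Abcc1 higher in WT females by both other tools (DESeq2 adjusted p = 0.0319, limma-voom adjusted p = 0.0237). The related channel subunit Abcc8 had a group mean of at most 0.837 CPM and passed in WT kidneys, at 0.837 CPM in females and 0.276 CPM in males (log2 fold change 1.60 ± 0.48 SE, edgeR adjusted p = 0.0325). The Abcc8 call was lost without replicate 0 or 2 of the WT females, or replicate 0 or 1 of the WT males (adjusted p 0.0661 to 0.134).

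Of the Slc22a members with no assigned direction, Slc22a17, a receptor for lipocalin 2, rose in females: it averaged 39.3 ± 4 CPM in TG females and 28.3 ± 2.5 CPM in TG males, and 37.2 ± 1.31 CPM in WT females and 27.6 ± 1.01 CPM in WT males (SD, n = 3 each), with log2 fold changes, female minus male, of 0.48 ± 0.088 (SE, edgeR adjusted p = 0.0021) in TG kidneys and 0.43 ± 0.088 (SE, edgeR adjusted p = 0.00374) in WT kidneys. Slc22a18 fell, at 393 ± 10.7 CPM in TG females and 501 ± 21.6 CPM in TG males, and 384 ± 50.8 CPM in WT females and 495 ± 60.4 CPM in WT males (SD, n = 3 each), with -0.35 ± 0.10 (SE, edgeR adjusted p = 0.0272) in TG kidneys and -0.36 ± 0.10 (SE, edgeR adjusted p = 0.0221) in WT kidneys. Its TG call was lost without any 1 of the 3 TG female libraries or TG male replicate 0 or 2 (adjusted p 0.0621 to 0.0819). Among WT libraries, its call was lost without female replicate 1, male replicate 0 or male replicate 1 (adjusted p 0.0611 to 0.0984). Slc22a23, a carrier-like gene of unknown cargo, averaged 139 CPM in TG females and 159.8 CPM in TG males, and 111 CPM in WT females and 125 CPM in WT males, without a call. The S3 marker sum and the sums of thick ascending limb (6055 to 7047 CPM in females, 3662 to 5593 CPM in males), distal convoluted and connecting tubule (2066 to 2232 CPM in females, 896 to 1319 CPM in males) and podocyte markers (420.3 to 451 CPM in females, 292 to 336 CPM in males) moved with sex alongside these genes, and their part in the differences was not tested.

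Regulators and partner carriers of these families were followed as lists, chosen with earlier results of these data known. Their shares beside those of all genes are therefore descriptions and not a test of the lists. Of 16 tested regulators 5 rose and 5 fell in females of each genotype, where 21.2% of all genes passed in TG and 21.3% in WT kidneys. Prlr, the prolactin receptor, rose to 304 CPM in TG females, against 14.8 CPM in TG males, and to 252 CPM in WT females, against 24.5 CPM in WT males (log2 fold change 4.36 ± 0.40 SE in TG kidneys, edgeR adjusted p = 1.1e-05, and 3.36 ± 0.38 SE in WT kidneys, edgeR adjusted p = 5.09e-05). The transcription factors Nr1h4 (FXR), Rxra and Hnf4a fell in both genotypes, and the xenobiotic sensors Nr1i2 (PXR) and Ahr, with Nfe2l2 (NRF2) and Cux2, rose in both. Several of these calls rest on few libraries. Without 1 library each, the calls for Ahr (adjusted p 0.0607 to 0.0915; female replicate 0 or 1, or male replicate 0), Cux2 (0.0702 to 0.0944; the same libraries) and Nfe2l2 (0.0619 to 0.0855; female replicate 0 or 2, or male replicate 2) were lost in WT kidneys. In TG kidneys they were lost for Nr1i2 (adjusted p 0.0807 to 0.156; female replicate 0 or 1 or male replicate 0 or 2) and Hnf4a (adjusted p 0.0571 to 0.117; any female library or male replicate 0 or 2). Hnf4a averaged 849 CPM in TG females and 1049 CPM in TG males (edgeR adjusted p = 0.0323) and 854 CPM in WT females and 1056 CPM in WT males (edgeR adjusted p = 0.0307), with the WT call lost without replicate 1 or 2 of the WT females, or replicate 0 or 1 of the WT males (adjusted p 0.051 to 0.135). Of 8 partner carriers and scaffolds 4 rose in each genotype, among them Atp1b1, Slc13a2 and Slc9a3r2, the TG call for Atp1b1 being lost without TG female replicate 1 or 2 (adjusted p 0.0572 to 0.0657). Slc13a2, the dicarboxylate carrier of the urine side, averaged 65.5 CPM in TG females and 36.4 CPM in TG males, and 68.8 CPM in WT females and 40.3 CPM in WT males (log2 fold change 0.85 ± 0.13 SE in TG kidneys, edgeR adjusted p = 0.000555, and 0.77 ± 0.13 SE in WT kidneys, edgeR adjusted p = 0.000968). Of 20 other carriers 7 rose and 6 fell in TG, and 5 rose and 7 fell in WT females. Slc17a2, a phosphate and anion carrier, averaged 21.8 CPM in TG females and 0.421 CPM in TG males, and 21.1 CPM in WT females and 0.518 CPM in WT males (log2 fold change 5.70 ± 0.45 SE in TG kidneys, edgeR adjusted p = 3.81e-06, and 5.36 ± 0.45 SE in WT kidneys, edgeR adjusted p = 5.02e-06). The monocarboxylate and urate-linked carriers Slc5a8, Slc17a1 and Slc17a3 fell, with Slc5a8 at 150.5 CPM in TG females and 352 CPM in TG males, and 153 CPM in WT females and 405 CPM in WT males (log2 fold change -1.23 ± 0.095 SE in TG kidneys, edgeR adjusted p = 3.04e-06, and -1.40 ± 0.095 SE in WT kidneys, edgeR adjusted p = 9.5e-07).

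The comparison of TG with WT asked whether the transgene changed these transporters. No member passed in any of 4 comparisons. In males without surgery 0 of 43 tested members passed (edgeR; 4 at an unadjusted p under 0.05, 0 by DESeq2 and by limma-voom), where 0.00523% of all genes passed and 5.22% had an unadjusted p under 0.05. In females 0 of 43 passed (edgeR; 3 unadjusted, 1 by DESeq2, Abcc2, and 0 by limma-voom), where 0.0418% of all genes passed and 9.09% had an unadjusted p under 0.05. After NX 0 of 42 passed (edgeR; 7 unadjusted, 1 by DESeq2, Slco4a1, and 0 by limma-voom), where 0.0117% of all genes passed and 6.77% had an unadjusted p under 0.05. After NX+IRI 0 of 43 passed (edgeR; 6 unadjusted, 1 by DESeq2, Slc22a19, and 0 by limma-voom), where 0.0701% of all genes passed and 14.1% had an unadjusted p under 0.05.

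Some estimates were large without passing. Abcc2 averaged 199 ± 33.1 CPM in TG females and 129.8 ± 12.8 CPM in WT females (SD, n = 3 each), a log2 fold change, TG minus WT, of 0.61 ± 0.18 (SE, edgeR adjusted p = 0.295). Slco4a1 averaged 30.3 ± 9.33 CPM in TG females and 85.6 ± 47.3 CPM in WT females (SD, n = 3 each), with -1.50 ± 0.44 (SE, edgeR adjusted p = 0.277). Slc22a19 had 57.4 at the lowest, 82.3 at the median and 104 CPM at the highest in TG NX+IRI kidneys, against 15.1 at the lowest, 38.1 at the median and 70.2 CPM at the highest in WT NX+IRI kidneys. These 6 and 6 libraries overlapped, and Slc22a19 gave a log2 fold change, TG minus WT, of 1.04 ± 0.27 (SE, edgeR adjusted p = 0.156). Without WT NX+IRI replicate 2 it became 1.29 (edgeR adjusted p = 0.0479). Slc22a13, Slc22a26 and Slc22a7 had estimates in the same direction after NX+IRI, at 0.85 ± 0.25, 0.96 ± 0.32 and 0.71 ± 0.22 (log2, TG minus WT, ± SE), with edgeR adjusted p of 0.185, 0.235 and 0.219. The intervals show what these libraries allow: for the anion carrier Slc22a6 in males without surgery the log2 difference, TG minus WT, lay within -0.10 to 0.45 (estimate ± 2 SE), and for Slc22a12 within -0.12 to 0.45. Over all genes the groups did not overlap for 9.23% in males without surgery, 16.5% in females, 12.6% after NX and 0.795% after NX+IRI.

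The comparison of NX+IRI at 4 hours with NX asked which transporters change early after ischemia. In TG kidneys 12 of 45 tested members passed, 3 higher and 9 lower (with upper-quartile scaling 17, 3 higher and 14 lower), where 29.4% of all genes passed, 16.4% higher and 13% lower (edgeR quasi-likelihood test, Benjamini-Hochberg adjusted p under 0.05). In WT kidneys 24 of 45 passed, 5 higher and 19 lower, where 30.9% of all genes passed, 16.8% higher and 14.1% lower. With at least a 2-fold change, 2 rose and 1 fell in TG kidneys, where 7.15% and 3.18% of all genes did. In WT kidneys 3 rose and 5 fell by at least 2-fold, where 8.45% and 2.42% of all genes did. The 12 members of the TG kidneys passed in WT kidneys too, each in the same direction. In TG kidneys the share of members that passed was near the background. The median log2 fold change of the tested members, NX+IRI minus NX, was -0.11 in TG and -0.31 in WT kidneys, against -0.007 for all genes in each. Over all genes, NX+IRI and NX libraries did not overlap for 31.6% in TG and 26.5% in WT kidneys. Of 28 tested uptake members 3 rose and 5 fell in TG, and 3 rose and 11 fell in WT. Of 11 tested export members 0 rose and 2 fell in TG, and 1 rose and 4 fell in WT. The genotype by injury interaction passed for 0 of 45 members (edgeR; 9 at an unadjusted p under 0.05, 0 by DESeq2 and by limma-voom; 0% of all genes passed and 9.59% had an unadjusted p under 0.05), so the larger count in WT is not shown to be a difference between genotypes.

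**Figure D4:**
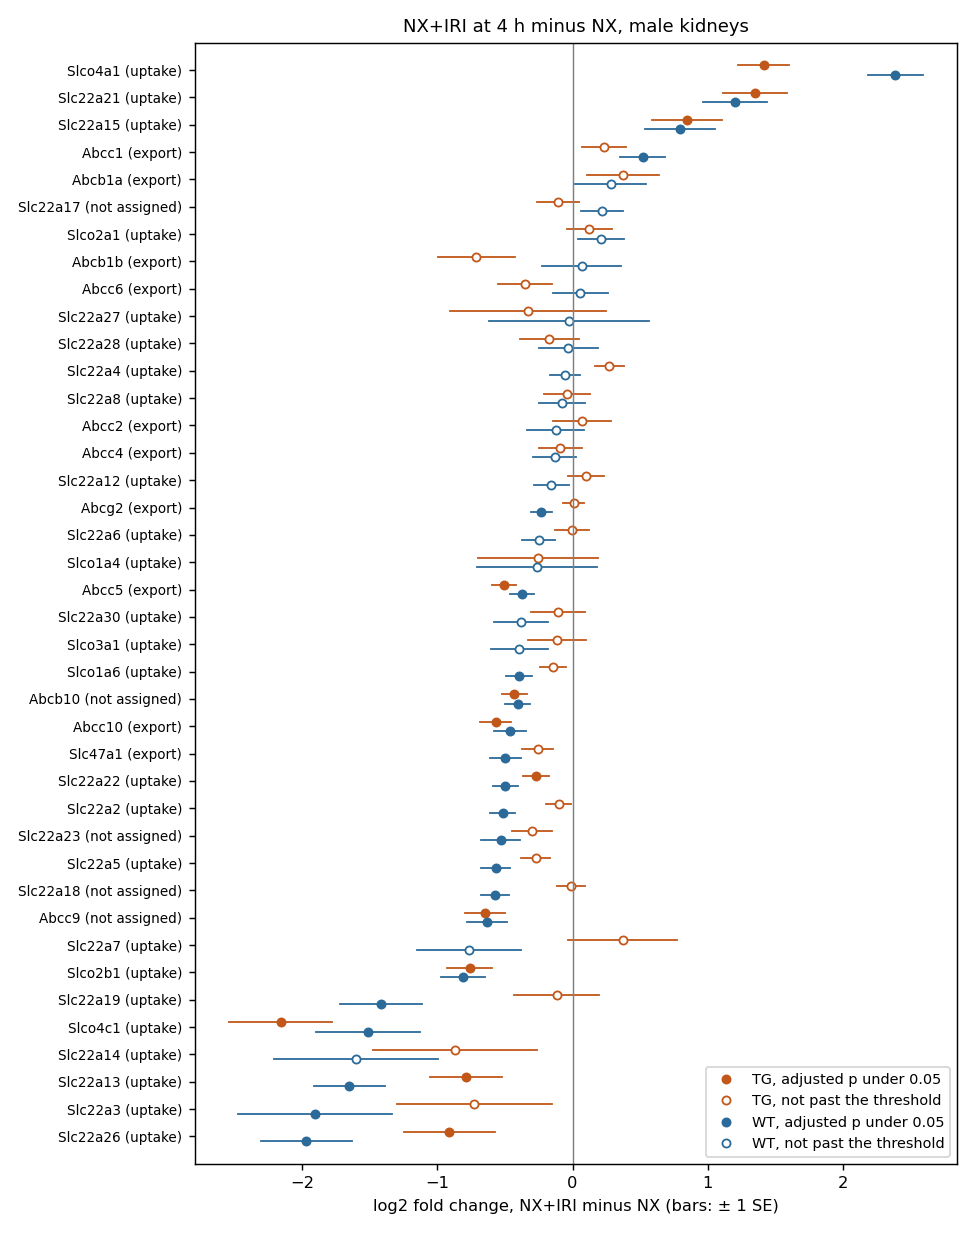
Log2 fold change, NX+IRI at 4 hours minus NX, of the members named in the text and tested in male kidneys, for TG (orange) and WT (blue), with bars of ± 1 SE. Filled points passed an edgeR adjusted p of 0.05. Slco4a1, Slc22a21 and Slc22a15 lie to the right of 0 in both genotypes, and the filled points at the bottom of the panel lie to the left.

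Slco4a1, the thyroid hormone carrier, had the largest rise among members above 1 CPM in both genotypes. It had 21.4 at the lowest, 26.1 at the median and 30.2 CPM at the highest in TG NX+IRI kidneys, against 11.3, 8.24 and 9.52 CPM in TG NX kidneys. WT kidneys held Slco4a1 at 20.9 at the lowest, 27.2 at the median and 39.5 CPM at the highest after NX+IRI, against 6.15, 6.13 and 3.99 CPM after NX. No NX library reached the lowest NX+IRI library in either genotype. Slco4a1 gave a log2 fold change, NX+IRI minus NX, of 1.41 ± 0.19 (SE, edgeR adjusted p = 1.4e-05) in TG kidneys and 2.39 ± 0.20 (SE, edgeR adjusted p = 4.32e-08) in WT kidneys. Its interaction estimate, TG minus WT, was -0.97 ± 0.26 (SE, edgeR adjusted p = 0.376).

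Slc22a21, the mouse Octn3, had 4.27 at the lowest, 5.17 at the median and 6.46 CPM at the highest in TG NX+IRI kidneys, against 1.87, 1.97 and 2.31 CPM in TG NX kidneys. WT kidneys held Slc22a21 at 2.65 at the lowest, 4.35 at the median and 5.01 CPM at the highest after NX+IRI, against 2.71, 1.3 and 1.5 CPM after NX. TG groups were separate and WT groups overlapped slightly. Slc22a21 gave a log2 fold change, NX+IRI minus NX, of 1.35 ± 0.24 (SE, edgeR adjusted p = 0.000238) in TG kidneys and 1.21 ± 0.24 (SE, edgeR adjusted p = 0.000703) in WT kidneys. Slc22a5, with which it shares sequence and position, moved the other way and fell in WT kidneys to 297 ± 32.3 CPM after NX+IRI (SD, n = 6), against 440.2 ± 86 CPM after NX (SD, n = 3; log2 fold change -0.57 ± 0.10 SE, edgeR adjusted p = 0.000395). In TG kidneys Slc22a5 gave -0.27 ± 0.11 (SE, edgeR adjusted p = 0.0609), with groups that did not overlap, and limma-voom called it (adjusted p = 0.0162). Slc22a15 rose in both, to 2.72 CPM after NX+IRI, against 1.51 CPM after NX in TG, and to 2.77 CPM, against 1.6 CPM, in WT kidneys (log2 fold change 0.84 ± 0.26 SE in TG kidneys, edgeR adjusted p = 0.019, and 0.79 ± 0.26 SE in WT kidneys, edgeR adjusted p = 0.0257). Each Slc22a15 call was lost without single NX libraries: any 1 of the 3 in TG (adjusted p 0.0557 to 0.0693), and replicate 1 or 2 in WT (adjusted p 0.135 to 0.144). Slc22a4 averaged 66.8 CPM in TG NX+IRI kidneys and 55.3 CPM in TG NX kidneys, and 59.6 CPM in WT NX+IRI kidneys and 61.9 CPM in WT NX kidneys, without an edgeR call. In TG kidneys it was called higher after NX+IRI by limma-voom (adjusted p = 0.0191), and by edgeR with only the compared groups in the fit (adjusted p = 0.0131) or without TG NX+IRI replicate 3 (adjusted p = 0.0453).

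Slco4c1, the blood-side carrier, fell. It had 5.31 at the lowest, 6.35 at the median and 13 CPM at the highest in TG NX+IRI kidneys, against 36.4, 14.1 and 48.8 CPM in TG NX kidneys. WT kidneys held Slco4c1 at 1.86 at the lowest, 4.61 at the median and 9.08 CPM at the highest after NX+IRI, against 16.5, 11.3 and 16.5 CPM after NX. Groups did not overlap in either genotype. Slco4c1 gave a log2 fold change, NX+IRI minus NX, of -2.16 ± 0.38 (SE, edgeR adjusted p = 0.000239) in TG kidneys and -1.51 ± 0.39 (SE, edgeR adjusted p = 0.00535) in WT kidneys. Slco2b1, a carrier of steroid conjugates, also fell in both, to 7.29 CPM after NX+IRI, against 12.4 CPM after NX in TG, and to 8.62 CPM, against 15.2 CPM, in WT kidneys (log2 fold change -0.76 ± 0.16 SE in TG kidneys, edgeR adjusted p = 0.0015, and -0.81 ± 0.16 SE in WT kidneys, edgeR adjusted p = 0.000837). Slco1a6 fell in WT, to 244 ± 29.6 CPM after NX+IRI (SD, n = 6), against 322 ± 19.9 CPM after NX (SD, n = 3; log2 fold change -0.40 ± 0.096 SE, edgeR adjusted p = 0.00346). Slco1a4, Slco2a1 and Slco3a1 did not pass in either genotype. Slco3a1 averaged 230.1 CPM in TG NX+IRI kidneys and 249 CPM in TG NX kidneys, and 192 CPM in WT NX+IRI kidneys and 252 CPM in WT NX kidneys. Slco2a1 averaged 40.3 CPM in TG NX+IRI kidneys and 37 CPM in TG NX kidneys, and 39.1 CPM in WT NX+IRI kidneys and 33.8 CPM in WT NX kidneys. Slco1a4, the scarcest of them, averaged 3.15 CPM in TG NX+IRI kidneys and 3.75 CPM in TG NX kidneys, and 2.4 CPM in WT NX+IRI kidneys and 2.88 CPM in WT NX kidneys.

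Among the anion carriers, Slc22a13 (OAT10) had 31.9 at the lowest, 40.3 at the median and 65.2 CPM at the highest in TG NX+IRI kidneys, against 75.5, 61.3 and 85.9 CPM in TG NX kidneys. WT kidneys held Slc22a13 at 10.2 at the lowest, 23.9 at the median and 37.5 CPM at the highest after NX+IRI, against 67.4, 80.2 and 75.8 CPM after NX. TG groups overlapped and WT groups did not. Slc22a13 gave a log2 fold change, NX+IRI minus NX, of -0.79 ± 0.27 (SE, edgeR adjusted p = 0.0308) in TG kidneys and -1.65 ± 0.26 (SE, edgeR adjusted p = 9.24e-05) in WT kidneys. The TG call was lost without TG NX+IRI replicate 1, 2 or 4 or TG NX replicate 0 or 2 (adjusted p 0.0602 to 0.13).

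Slc22a26, of the chromosome 19 group, had 6.51 at the lowest, 11.8 at the median and 16.1 CPM at the highest in TG NX+IRI kidneys, against 26.3, 14.7 and 22.6 CPM in TG NX kidneys. WT kidneys held Slc22a26 at 1.81 at the lowest, 5.22 at the median and 10.5 CPM at the highest after NX+IRI, against 18.8, 25.3 and 23.5 CPM after NX. The TG groups overlapped and the WT groups were separate. Slc22a26 gave a log2 fold change, NX+IRI minus NX, of -0.91 ± 0.34 (SE, edgeR adjusted p = 0.0497) in TG kidneys and -1.97 ± 0.34 (SE, edgeR adjusted p = 0.000193) in WT kidneys. Its TG call was lost without TG NX+IRI replicate 1, 2, 3 or 4 or TG NX replicate 0 or 2 (adjusted p 0.0638 to 0.202), and was not made by DESeq2 (adjusted p = 0.0705). Slc22a19, its neighbour (Oat5), had 15.1 at the lowest, 38.1 at the median and 70.2 CPM at the highest in WT NX+IRI kidneys, against 89.9, 105 and 117 CPM in WT NX kidneys, and the groups did not overlap. TG kidneys held Slc22a19 at 57.4 at the lowest, 82.3 at the median and 104 CPM at the highest after NX+IRI, against 108, 53.3 and 99.1 CPM after NX, and these overlapped. Slc22a19 gave a log2 fold change, NX+IRI minus NX, of -0.12 ± 0.31 (SE, edgeR adjusted p = 0.826) in TG kidneys and -1.42 ± 0.30 (SE, edgeR adjusted p = 0.00143) in WT kidneys, and its interaction did not pass (edgeR adjusted p = 0.411).

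The abundant anion carriers Slc22a6, Slc22a8 and Slc22a12 did not pass in edgeR. Slc22a6 averaged 1291 ± 162 CPM in TG NX+IRI kidneys and 1292 ± 253 CPM in TG NX kidneys (SD, n = 6 and 3), and 1285 ± 95 CPM in WT NX+IRI kidneys and 1528 ± 238 CPM in WT NX kidneys (SD, n = 6 and 3). Its log2 difference, NX+IRI minus NX, lay within -0.25 to 0.25 in TG and -0.50 to -0.002 in WT kidneys (estimate ± 2 SE), and with upper-quartile scaling Slc22a6 was called lower in WT kidneys (edgeR adjusted p = 0.046). Slc22a8 averaged 494 CPM in TG NX+IRI kidneys and 508 CPM in TG NX kidneys, and 552 CPM in WT NX+IRI kidneys and 583 CPM in WT NX kidneys. Slc22a12 averaged 972 CPM in TG NX+IRI kidneys and 908 CPM in TG NX kidneys, and 914 CPM in WT NX+IRI kidneys and 1020 CPM in WT NX kidneys. The sex-biased genes Slc22a30 (158 CPM in WT NX+IRI kidneys and 206 CPM in WT NX kidneys), Slc22a28 (123 CPM in WT NX+IRI kidneys and 126 CPM in WT NX kidneys) and Slc22a27 (0.367 CPM in WT NX+IRI kidneys and 0.375 CPM in WT NX kidneys) did not pass in either genotype in edgeR, nor did Slc22a14 or Slc22a17. In WT kidneys Slc22a14 was called lower after NX+IRI by both other tools (DESeq2 adjusted p = 0.0377, limma-voom adjusted p = 0.00701), and by edgeR without WT NX+IRI replicate 2 (log2 fold change -2.24, adjusted p = 0.00542). Slc22a7 (OAT2) had 48.1 at the lowest, 128 at the median and 168 CPM at the highest in WT NX+IRI kidneys, against 177, 239 and 208 CPM in WT NX kidneys. TG kidneys held Slc22a7 at 155 at the lowest, 198 at the median and 269 CPM at the highest after NX+IRI, against 224, 33 and 212 CPM after NX, where replicate 1 was far below the others. Slc22a7 did not pass (edgeR adjusted p = 0.54 in TG and 0.145 in WT). Slc22a22 fell in both, to 113 CPM after NX+IRI, against 136 CPM after NX in TG, and to 102 CPM, against 145 CPM, in WT kidneys (log2 fold change -0.27 ± 0.094 SE in TG kidneys, edgeR adjusted p = 0.0361, and -0.50 ± 0.093 SE in WT kidneys, edgeR adjusted p = 0.000452). Its TG call was lost without TG NX+IRI replicate 2, 3 or 4 or TG NX replicate 0 or 1 (adjusted p 0.0509 to 0.172).

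**Figure D5:**
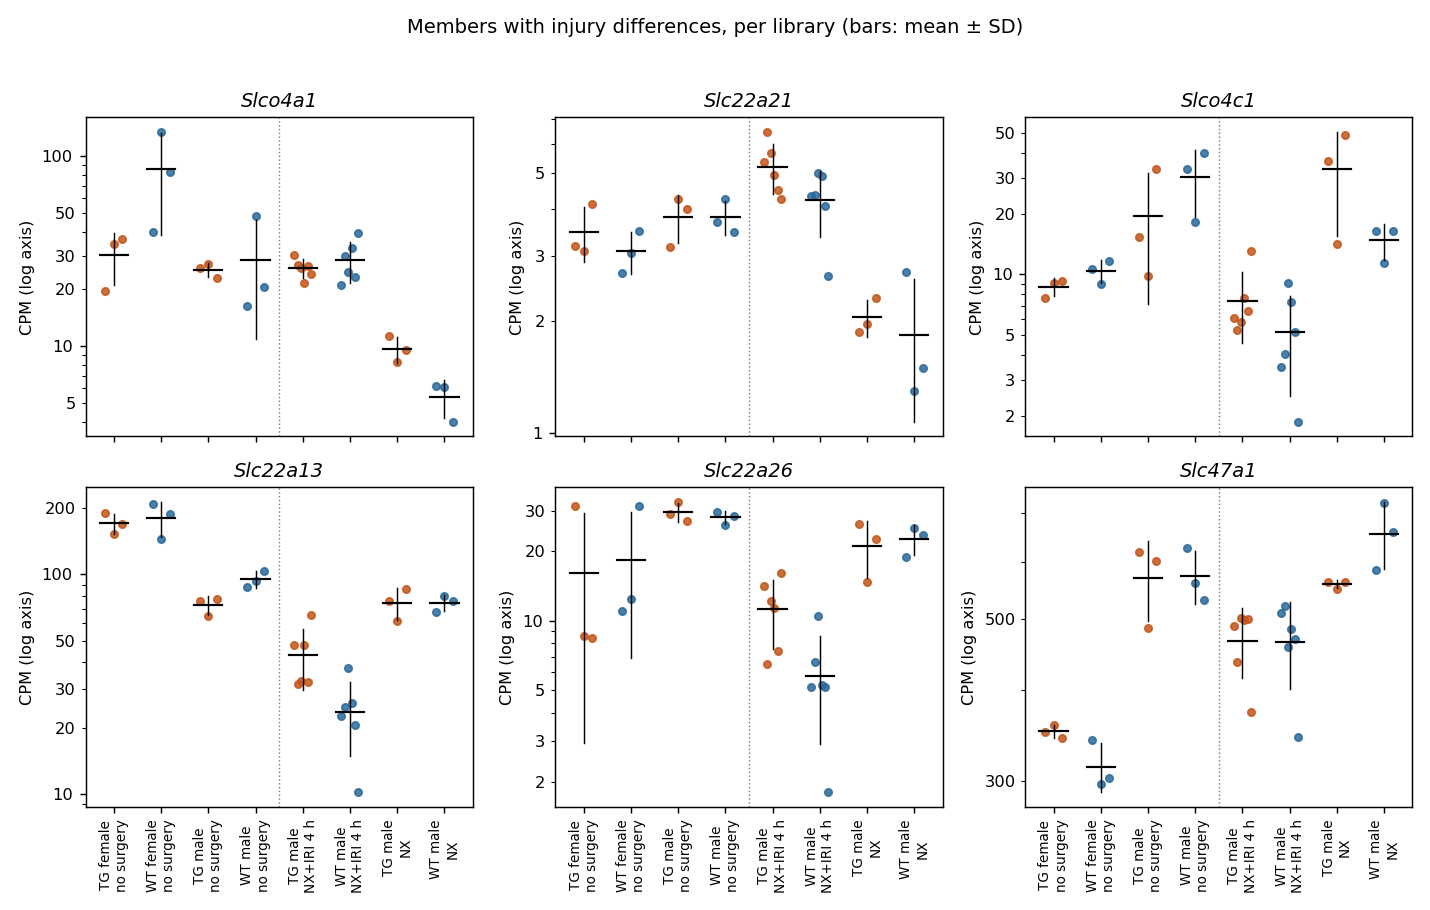
Level of 6 members in each library, in CPM on log axes, for the 8 groups. Points are libraries, horizontal bars the mean and vertical bars ± 1 SD; the dotted line separates the 2 count tables. Slco4a1 and Slc22a21 lie higher after NX+IRI than after NX, and Slco4c1, Slc22a13, Slc22a26 and Slc47a1 lie lower in WT kidneys.

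RNA of the cation carriers Slc22a2, Slc22a3 and Slc47a1 was called lower in WT kidneys, as was that of the anion carriers Slc22a13, Slc22a22 and Slc22a26 above. Slc22a2 (OCT2) averaged 322 ± 30.1 CPM in WT NX+IRI kidneys and 461 ± 62.2 CPM in WT NX kidneys (SD, n = 6 and 3; log2 fold change -0.52 ± 0.092 SE, edgeR adjusted p = 0.000272). Slc22a3 (OCT3) had 0.201 at the lowest, 0.333 at the median and 0.546 CPM at the highest in WT NX+IRI kidneys, against 2.44, 0.764 and 0.708 CPM in WT NX kidneys. It passed at -1.91 ± 0.57 (SE, edgeR adjusted p = 0.0148) on the log2 scale, and not without WT NX replicate 0, the library with the most Adipoq (adjusted p = 0.226, log2 -1.07) or in limma-voom (adjusted p = 0.0825). Slc47a1 (MATE1) had 344 at the lowest, 477 at the median and 521 CPM at the highest in WT NX+IRI kidneys, against 584, 723 and 659 CPM in WT NX kidneys, with no overlap. TG kidneys held Slc47a1 at 373 at the lowest, 494 at the median and 502 CPM at the highest after NX+IRI, against 562, 550.3 and 563 CPM after NX, again without overlap. Slc47a1 gave a log2 fold change, NX+IRI minus NX, of -0.26 ± 0.11 (SE, edgeR adjusted p = 0.0966) in TG kidneys and -0.50 ± 0.11 (SE, edgeR adjusted p = 0.00235) in WT kidneys, a call in WT kidneys; limma-voom called it in TG kidneys too (adjusted p = 0.0322). In TG kidneys Slc22a2 gave -0.10 ± 0.093 (SE, edgeR adjusted p = 0.459) on the same scale.

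Apart from the scarce Abcc8, the ABC members that passed changed by less than 2-fold. Abcc5, Abcc10, Abcc9 and Abcb10 fell in both genotypes. Abcc5 averaged 30.2 CPM in TG NX+IRI kidneys and 43.1 CPM in TG NX kidneys, and 28.2 CPM in WT NX+IRI kidneys and 36.5 CPM in WT NX kidneys (log2 fold change -0.51 ± 0.089 SE in TG kidneys, edgeR adjusted p = 0.000219, and -0.37 ± 0.090 SE in WT kidneys, edgeR adjusted p = 0.00351). Abcc10 averaged 9.91 CPM in TG NX+IRI kidneys and 14.7 CPM in TG NX kidneys, and 11.2 CPM in WT NX+IRI kidneys and 15.5 CPM in WT NX kidneys (log2 fold change -0.57 ± 0.12 SE in TG kidneys, edgeR adjusted p = 0.000965, and -0.46 ± 0.12 SE in WT kidneys, edgeR adjusted p = 0.00485). Abcc9 averaged 10.4 CPM in TG NX+IRI kidneys and 16.4 CPM in TG NX kidneys, and 10.3 CPM in WT NX+IRI kidneys and 15.9 CPM in WT NX kidneys, and Abcb10 28.4 CPM in TG NX+IRI kidneys and 38.4 CPM in TG NX kidneys, and 29.4 CPM in WT NX+IRI kidneys and 39 CPM in WT NX kidneys. Abcg2 fell in WT kidneys to 497 ± 36.9 CPM after NX+IRI (SD, n = 6), against 584 ± 35 CPM after NX (SD, n = 3; log2 fold change -0.23 ± 0.077 SE, edgeR adjusted p = 0.0271), a call lost without WT NX replicate 1 or 2 (adjusted p 0.0776 to 0.173). Abcc1 rose in WT kidneys to 28.1 CPM after NX+IRI, against 19.6 CPM after NX (log2 fold change 0.52 ± 0.17 SE, edgeR adjusted p = 0.0225), a call lost without WT NX replicate 0 or 2 (adjusted p 0.0643 to 0.0738). Abcc2, the most abundant Abcc pump, had 191 at the lowest, 370.3 at the median and 482 CPM at the highest in TG NX+IRI kidneys, against 330.4, 348 and 302 CPM in TG NX kidneys. WT kidneys held Abcc2 at 213 at the lowest, 289.7 at the median and 402 CPM at the highest after NX+IRI, against 274, 338 and 359 CPM after NX, and the groups overlapped in both genotypes. Neither Abcc2 nor Abcc4, Abcc6, Abcb1a or Abcb1b passed in edgeR. In TG kidneys Abcb1b was called lower after NX+IRI by DESeq2 (adjusted p = 0.0443) and by edgeR with upper-quartile scaling (adjusted p = 0.0269). Without TG NX replicate 0 edgeR called Abcb1b (adjusted p = 0.0465) and Abcc6 (log2 fold change -0.59, adjusted p = 0.0353) lower in TG kidneys, and without TG NX+IRI replicate 4 it called Abcb1b (adjusted p = 0.0449). Abcb1a averaged 8.89 CPM in TG NX+IRI kidneys and 6.88 CPM in TG NX kidneys, and 6.8 CPM in WT NX+IRI kidneys and 5.59 CPM in WT NX kidneys. Abcb1b averaged 4.77 CPM in TG NX+IRI kidneys and 7.82 CPM in TG NX kidneys, and 5.9 CPM in WT NX+IRI kidneys and 5.63 CPM in WT NX kidneys. The log2 difference of Abcc4 (MRP4), a pump for conjugates and cyclic nucleotides, lay within -0.41 to 0.23 in TG and -0.45 to 0.18 in WT kidneys (NX+IRI minus NX, estimate ± 2 SE). Slc22a18 and Slc22a23 fell in WT kidneys, at 439.9 CPM in WT NX+IRI kidneys and 655 CPM in WT NX kidneys (log2 fold change -0.57 ± 0.10 SE, edgeR adjusted p = 0.000266) and 110.3 CPM in WT NX+IRI kidneys and 159.5 CPM in WT NX kidneys (log2 fold change -0.53 ± 0.15 SE, edgeR adjusted p = 0.00937). The Slc22a23 call was lost without WT NX replicate 1 or 2 (adjusted p 0.0763 to 0.0824). Abcc8 passed in WT kidneys at 0.15 CPM after NX+IRI and 0.0206 CPM after NX, a level of few counts, with overlapping groups (log2 fold change 2.75 ± 1.01 SE, edgeR adjusted p = 0.0449). That call was lost without WT NX+IRI replicate 1, 3, 4 or 5 or WT NX replicate 1 or 2 (adjusted p 0.0534 to 0.157).

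The proximal tubule marker sum was lower in every NX+IRI library (14340 to 16430 CPM) than in every NX library (17020 to 24360 CPM), alongside the falls above. WT NX replicate 1 had the highest of these sums, and WT NX+IRI replicate 5 had the lowest S3 marker sum of its group, 2790 CPM. Replicate 5 also had the highest podocyte (440.1 CPM) and endothelial (509.3 CPM) sums of its group. Its thick ascending limb (6154 CPM), distal convoluted and connecting tubule (2751 CPM) and collecting duct (738.3 CPM) sums were the highest as well. The part of these sums in the differences was not tested. In WT kidneys 18 members passed without NX replicate 2, 19 without NX replicate 1 and 23 without NX+IRI replicate 5. Without the library labelled WT NX+IRI replicate 1, which held EGFP counts, 23 passed.

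Of the same lists, 4 of 16 tested regulators rose and 3 fell in TG kidneys after NX+IRI, and 4 rose and 4 fell in WT, where 29.4% of all genes passed in TG and 30.9% in WT kidneys. Nfe2l2 (NRF2), the oxidative stress regulator, averaged 152 CPM in TG NX+IRI kidneys and 80.5 CPM in TG NX kidneys, and 137 CPM in WT NX+IRI kidneys and 76.1 CPM in WT NX kidneys (log2 fold change 0.92 ± 0.14 SE in TG kidneys, edgeR adjusted p = 6.3e-05, and 0.85 ± 0.14 SE in WT kidneys, edgeR adjusted p = 0.000145). Esr1, an estrogen receptor, fell and Ahr and Nr1h4 rose in both genotypes, the Nr1h4 calls being lost without TG NX replicate 1 (adjusted p = 0.11) or WT NX replicate 2 (adjusted p = 0.0503). Of 8 partner carriers and scaffolds 0 rose and 2 fell in TG, and 0 rose and 3 fell in WT (25% and 37.5%). Of all genes, 13% fell in TG and 14.1% in WT kidneys. Slc9a3r2, a scaffold of the urine-side membrane, averaged 25.1 CPM in TG NX+IRI kidneys and 40.6 CPM in TG NX kidneys, and 27.8 CPM in WT NX+IRI kidneys and 43.6 CPM in WT NX kidneys (log2 fold change -0.69 ± 0.16 SE in TG kidneys, edgeR adjusted p = 0.00303, and -0.65 ± 0.16 SE in WT kidneys, edgeR adjusted p = 0.00454). Of 20 other carriers 3 rose and 4 fell in TG, and 1 rose and 9 fell in WT. The monocarboxylate carrier Slc16a1 averaged 110 CPM in TG NX+IRI kidneys and 31.8 CPM in TG NX kidneys, and 102 CPM in WT NX+IRI kidneys and 34.5 CPM in WT NX kidneys (log2 fold change 1.79 ± 0.20 SE in TG kidneys, edgeR adjusted p = 2.02e-06, and 1.57 ± 0.20 SE in WT kidneys, edgeR adjusted p = 9.25e-06), and Slc16a9, a carnitine efflux carrier known from human work, 83.4 CPM in TG NX+IRI kidneys and 159.6 CPM in TG NX kidneys, and 75 CPM in WT NX+IRI kidneys and 171 CPM in WT NX kidneys (log2 fold change -0.94 ± 0.15 SE in TG kidneys, edgeR adjusted p = 0.000109, and -1.19 ± 0.15 SE in WT kidneys, edgeR adjusted p = 8.19e-06). In the 4 TG against WT comparisons no gene of these lists passed (edgeR). Genes with the smallest edgeR p of a list are given with their log2 fold change, TG minus WT. In males without surgery these were Nr1i2 (0.36, adjusted p = 0.916), Slc13a3 (0.23, adjusted p = 0.916) and Slc16a1 (0.63, adjusted p = 0.916). In females these were Slc9a3r2 (-0.43, adjusted p = 0.0639) and Slc17a4 (1.07, adjusted p = 0.188). In NX kidneys these were Prlr (1.45, adjusted p = 0.73), Slc9a3r1 (-0.19, adjusted p = 0.782) and Slc10a2 (0.45, adjusted p = 0.73). In NX+IRI kidneys these were Stat5a (0.31, adjusted p = 0.305), Slc9a3r1 (0.15, adjusted p = 0.348) and Slc15a2 (0.41, adjusted p = 0.253).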

How the data were processed

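Whole-kidney RNA was sequenced as 30 libraries in 2 count tables of 57133 genes (12 libraries without surgery, 18 after NX or NX+IRI). The authors deposited raw counts per gene. Reads were trimmed with fastp 0.23.2 and aligned with STAR 2.7.0 to GRCm39, per the submitters' processing notes, and counted with featureCounts 2.0.3 over the exons of Ensembl annotation 112, per the file headers. Strand, pair and multi-mapping settings are not given in the sources used here; of counts of at least 10, 37.3 to 41.9% were odd. Symbols came from GENCODE M21 for 51881 of 57133 identifiers (90.8%).

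Each table was fitted with edgeR 4.0.16 (TMM scaling, quasi-likelihood test, Benjamini-Hochberg adjustment over all tested genes, R 4.3.3). Tested genes were those passing its low-count filter, 17100 to 19264 by comparison. Fits held all groups of a table, except that TG against WT after NX used the NX libraries alone. Likewise, TG against WT after NX+IRI used the NX+IRI libraries alone. The script was tested on simulated data. CPM used TMM library sizes, and RPKM divided CPM by the deposited exon length. DESeq2 1.42.0, limma-voom 3.58.1, other scalings and filters and left-out libraries were alternatives. Within groups, no 2 libraries were copies (chi-square per degree of freedom 18.64 to 198.13 over 48 replicate pairs). Libraries of different groups were not compared in this way. Members, lists and tests were chosen with earlier results of these data known. Members with a group mean of at least 1 CPM were named, except 1 that is not reported here, with values in every library for those called at a fold of at least 2 and for the highest of each family. From each list up to 5 called genes per comparison and direction, by smallest p, could be named. Leaving out libraries over 20 CPM of Adipoq was chosen after seeing the data.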

Additional observations from a re-analysis of the deposited data

Results flagged for a closer look

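Over 82 tests of whether 1 library of 6 stands apart from its group, 8 were positive (Dixon's ratio above 0.625); chance gives about 1 in 20. In WT NX+IRI replicate 5, Abcc1 stood at 45.2 CPM, against 21.2 to 27.2 in the other 5 libraries of its group, Abcg2 at 425 CPM, against 496 to 530, and Slc47a1 at 344 CPM, against 458 to 521. This library had the lowest S3 marker sum of its group. Its thick ascending limb, distal convoluted and connecting tubule, collecting duct, podocyte and endothelial sums were the highest. The part of these sums in these values was not tested. Abcc6 stood at 12.4 CPM in WT NX+IRI replicate 4, against 6.92 to 8.73 in the others. In TG NX+IRI replicate 2, Abcc6 stood at 9.26 CPM, against 7.03 to 7.71, and Abcc5 at 33.4 CPM, against 29.1 to 30.5. Slc22a27 stood at 0.829 CPM in TG NX+IRI replicate 1, against 0.188 to 0.362 in the others. Slco4c1 stood at 13 CPM in TG NX+IRI replicate 5, against 5.31 to 7.68.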

How the results depend on the processing

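No named member changed direction as a called value under any alternative run. Among members' results under the alternatives other than leaving out 1 library, 3559 stayed on their side of the threshold, 31 lost and 53 gained a call. These alternatives include the run without the libraries over 20 CPM of Adipoq. With 1 library left out the numbers were 3689, 75 and 10. A minimum fold of 2 left 13 members in TG and 15 in WT for female against male kidneys, and 3 in TG and 8 in WT for NX+IRI against NX. With no low-count filter TG against WT gave 2 members in females (Abcc2 higher and Slco4a1 lower in TG) and 2 after NX (Slco4a1 and Slco4c1, each higher in TG). For Slco4c1 after NX this was a log2 fold change, TG minus WT, of 1.17 ± 0.23 (SE, edgeR adjusted p = 0.0076). DESeq2 gave 1 member in females, 1 after NX and 1 after NX+IRI. With 1 library left out, counts of called members ranged from 17 to 21 in TG and 21 to 26 in WT (female against male), from 9 to 12 in TG and 18 to 25 in WT (NX+IRI against NX), from 0 to 1 for TG against WT after NX+IRI and stayed at 0 for the other TG against WT comparisons and both interactions. Upper-quartile scaling moved the median log2 fold change of all genes, NX+IRI minus NX, by -0.136 in TG and -0.089 in WT kidneys, and estimates there are relative to that scaling; it gave 17 called members in TG, 3 higher and 14 lower, and 25 in WT, 4 higher and 21 lower. With the replicate number as a block the counts were 25 in TG and 28 in WT (female against male), 9 in TG and 21 in WT (NX+IRI against NX) and 0 elsewhere; same-numbered libraries correlated at -0.042 to 0.48, not all above 0.1, so the numbers were not taken as pairs. Each library correlated best with its own number in 3 of the 8 comparisons. Without the libraries over 20 CPM of Adipoq, chosen after seeing the data, the counts were 22, 23, 12 and 22 in the same order and 0 in the others; it does not apply to TG against WT after NX+IRI. Fits with only the compared groups were not run for the interactions. For TG against WT after NX or NX+IRI, where the main fit held only the compared groups, the alternative held all groups of the table. With all counts halved, as at a lower depth, the counts were 23, 26, 13 and 25 (TG and WT, female against male, then TG and WT, NX+IRI against NX) and 0 in the others.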
